A study of Rattus norvegicus with 2 samples.

Results

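Among the leukocytes of the infarcted rat heart, 676 macrophages held 0.3% or more of their transcripts as Spp1, the message of osteopontin, out of 29688 cells that passed filtering. They were chosen by raw counts of unique molecular identifiers (UMIs, which count captured transcripts). A cell had to have 200 or more genes and at most 20% mitochondrial UMIs, a UMI of the macrophage gene Cd68 and a UMI of Gpnmb or Fn1. It could hold no UMI of the T cell gene Cd3e or the B cell gene Cd79b. The neutrophil genes S100a8 and S100a9 had to stay under 2% of its UMIs, and the cell cycle genes Mki67, Top2a, Birc5, Cdk1, Ccna2 and Ube2c at 2 UMIs or fewer together. These values chose the cells, so the levels of these genes are given as a description.

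The cells had been sorted by CD45, a surface protein of all leukocytes, from left ventricles of rats labelled wt, with infarct and border tissue pooled at day 7 after surgery. Per the labels, 1 sample came from hearts with an infarct and a patch (MI+PUR-hAESC), a scaffold of antioxidant polyurethane seeded with amniotic epithelial stem cells of human origin, and 1 from hearts with a myocardial infarction and no patch (MI). Both groups carry the infarct, and the sources used here do not give strain, age or the number of hearts per sample. Barcodes of the matrix end in suffix 1 or suffix 2, called library 1 and library 2, and the suffixes could not be matched to the groups. Values therefore stand side by side by library, none is attributed to the patch, and with 1 library of each kind no difference was tested.

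Osteopontin is a secreted phosphoprotein that binds integrins and CD44 and is made in quantity by macrophages that enter a wound and clear dead tissue. Gpnmb is a membrane glycoprotein of lysosomes and melanosomes that rises in macrophages loaded with lipid or debris. Macrophages that carry both have been described in infarcts, fibrotic organs, atherosclerotic plaques and tumours, often together with Trem2, Fabp5, Cd9 and Cd63, and are known there as scar-associated or lipid-associated macrophages. The C1q-high macrophages used below for comparison express the complement genes C1qa, C1qb and C1qc, and in the heart such cells often carry class II molecules or markers of resident macrophages such as Lyve1.

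The members numbered 492 in library 1 and 184 in library 2. They made up 3.48% of the filtered cells of library 1 (3.18 to 3.80) and 1.18% of those of library 2 (1.02 to 1.37). Of cells with a Cd68 UMI they made up 10.5% (9.63 to 11.4) in library 1 and 4.05% (3.50 to 4.67) in library 2. Intervals here and below are exact 95% intervals, Clopper-Pearson for shares and Poisson for levels. They cover counting error only, and they treat UMIs as independent although some cells hold many UMIs of 1 gene. The share was higher in library 1 on both denominators and the intervals lie apart, but shares depend on the sort, the dissociation and the numbers of other cells captured.

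Of the steps of the rule, the Spp1 threshold removed most cells. It left 582 of 4687 cells with a Cd68 UMI in library 1 and 250 of 4538 in library 2. The Gpnmb or Fn1 criterion removed only 3 and 2 of these. The exclusion of dividing cells took out 40 cells (7.52%) of library 1 and 28 (13.2%) of library 2, so Spp1-high cells in cycle existed in both libraries and are not among the members. Members held 4311211 UMIs in library 1 and 1326387 in library 2, with a median of 8262 and 6337 UMIs per cell. The median in C1q-high macrophages was 6866.5 and 6326 UMIs. No barcode sequence was shared between members of library 1 and members of library 2, although the libraries shared 71 barcode sequences in all. The doublet caller Scrublet marked 8 members of library 1 (1.63%) and 4 of library 2 (2.17%), against 4.07% and 6.82% of all filtered cells, and these members were kept.

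The label rests on Spp1, Gpnmb, Ccl24, Ccl7, Fn1 and Arg1. Spp1, Gpnmb and Fn1 are in the rule, so their shares are a description, and Ccl24, Ccl7 and Arg1 are the markers that the rule did not use. For these shares, 1500 UMIs were drawn at random from each cell, which left out 7 members of library 1 and 15 of library 2. Gpnmb had a UMI in 85.98% (82.6 to 88.9) of members of library 1 and 87.6% (81.6 to 92.1) of library 2, and unthinned in 95.7% and 97.3%. The rule asked for a UMI of Gpnmb or Fn1, but this step removed only 3 and 2 cells, so it could raise the shares of Gpnmb only slightly.

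Fn1, which encodes fibronectin, an adhesive protein of provisional matrix, had a UMI in 62.1% (57.6 to 66.4) and 47.3% (39.6 to 55.1) of thinned members (74.6% and 66.3% unthinned). Ccl24, an eotaxin that attracts eosinophils through the receptor CCR3, had one in 20.2% (16.7 to 24.1) and 7.10% (3.72 to 12.1) (25.6% and 10.3% unthinned). Ccl7, a chemokine that attracts monocytes, had one in 22.3% (18.6 to 26.2) and 18.9% (13.3 to 25.7) (38.6% and 35.3% unthinned). Arg1, the arginase that turns arginine into ornithine and urea, had a UMI in 10.5% (7.93 to 13.6) and 5.33% (2.46 to 9.87) of thinned members (31.5% and 14.1% unthinned). Of these 4 markers, Fn1 and Ccl24 had intervals that lie apart between library 1 and library 2, and those of Ccl7 and Arg1 overlap. Ccl24, Ccl7 and Arg1 marked a minority of the cells, also where they were high in the sum.

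Free RNA in the droplets gives UMIs in cells that do not express a gene, and T cells and B cells of the same libraries show its level. Thinned T cells had a UMI of Gpnmb in 1.98% (1.41 to 2.71) of library 1 and 1.33% (0.969 to 1.78) of library 2, and B cells in 3.42% (2.23 to 5.01) and 1.61% (1.05 to 2.37). Ccl24 was present in 0.261% (0.0847 to 0.607) and 0.303% (0.145 to 0.556) of T cells, and in 0.685% (0.223 to 1.59) and 0.0645% (0.0016 to 0.359) of B cells. The median depth was 4782 and 4940 UMIs in T cells and 2946 and 2855.5 UMIs in B cells. All of these shares lie below those of members. C1q-high macrophages came between, with Gpnmb in 37.5% (34.3 to 40.9) and 33.7% (30.6 to 36.9), so Gpnmb was not confined to Spp1-high cells. Ccl24 had a UMI in 7.07% (5.45 to 8.99) and 6.80% (5.23 to 8.67) of C1q-high macrophages, Ccl7 in 12.7% (10.6 to 15.2) and 5.90% (4.43 to 7.66), and Arg1 in 0.579% (0.188 to 1.35) and 0.227% (0.0275 to 0.817). In library 2 the share with Ccl24 was thus about the same in members and C1q-high macrophages, with intervals that overlap, while in library 1 it was higher in members. The intervals of Ccl7 and Arg1 lie above those of C1q-high macrophages in both libraries.

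Members carried a large part of the libraries' RNA of these genes. Members held 5.96% and 1.61% of all UMIs of filtered cells in library 1 and library 2, but 77.2% and 56.7% of the Spp1 UMIs, which follows from the choice of cells. They held 50.8% and 29.9% of the Arg1 UMIs, 38.97% and 12.6% of the Ccl24 UMIs and 37.8% and 14.6% of the Ccl7 UMIs. Of the UMIs of the protease genes Mmp12 and Ctsk they held 37.4% and 40.5% and 28.3% and 43.8%. Of Gpnmb they held 33.01% and 20.8% and of Fn1 27.5% and 10.8%, so most UMIs of Gpnmb and Fn1 lay in other cells.

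The promoter sequences of Spp1 and Gpnmb are shown because these genes name the cells. Of the markers Spp1, Gpnmb, Ccl24, Ccl7, Fn1 and Arg1, 4 of 6 had a sequence in the RefSeq table used (assembly GRCr8), namely Spp1, Gpnmb, Ccl24 and Ccl7. Each sequence runs from 250 bases before to 50 bases after the annotated start of the gene, 5′ to 3′ on the gene's strand. Capitals mark the motifs TGANTCA (bound by AP-1 factors such as Fos and Jun) and TCACATG (an E-box of MITF and TFE factors). They also mark TCACGTG (a relative of TCACATG found in lysosomal genes) and AACCGCA (bound by RUNX factors). Both strands were searched, and the motif letters were chosen with these sequences in view. The Spp1 promoter lies at chr14:5619755-5620054 on the minus strand and the Gpnmb promoter at chr4:79340878-79341177 on the plus strand.
Spp1 promoter: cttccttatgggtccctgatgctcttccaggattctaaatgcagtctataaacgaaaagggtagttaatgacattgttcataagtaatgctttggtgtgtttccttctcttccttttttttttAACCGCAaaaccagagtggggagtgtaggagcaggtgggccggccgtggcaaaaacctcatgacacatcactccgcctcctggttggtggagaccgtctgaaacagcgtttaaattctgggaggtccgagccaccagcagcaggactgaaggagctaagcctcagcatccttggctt
Gpnmb promoter: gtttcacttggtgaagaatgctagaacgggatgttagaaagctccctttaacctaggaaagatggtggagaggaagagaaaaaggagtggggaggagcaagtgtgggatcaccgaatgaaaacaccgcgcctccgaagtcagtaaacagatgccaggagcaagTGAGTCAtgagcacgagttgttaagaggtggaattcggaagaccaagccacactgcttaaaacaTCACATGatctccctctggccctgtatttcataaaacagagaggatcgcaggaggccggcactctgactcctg
The Spp1 window holds AACCGCA, whose first base lies 127 bases before the start. The Gpnmb window holds TGAGTCA 87 bases before the start and TCACATG 23 bases before it. Of the other 2 markers with a sequence, not printed here, the Ccl7 window holds TGANTCA and the Ccl24 window holds none of these letters. Among 33469 promoters of the same length, TGANTCA was found in 7.33%, TCACATG in 3.89%, TCACGTG in 3.20% and AACCGCA in 1.47%. Of the 12 genes named below as higher in members than in C1q-high macrophages, 8 had a promoter in the table. TGANTCA was found in those of Gpnmb and Mmp12, TCACGTG in that of Mmp12, TCACATG in that of Gpnmb and AACCGCA in that of Spp1. Of the 12 named as lower, 11 had one, and TGANTCA was found in that of Klra2. A match describes these letters and is not a binding site.

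Members were set beside 1802 C1q-high macrophages (892 in library 1 and 910 in library 2). These met the same filters and exclusions and had a Cd68 UMI, but held 0.3% or more of their UMIs in C1qa, C1qb and C1qc and under 0.05% in Spp1. UMIs were summed over the cells of a group in each library and divided by the sum of all genes, in CPM (UMIs of the gene per 1000000 UMIs of the group). Ratios are log2 of CPM plus 10, members over C1q-high macrophages. A gene was counted as tested where the higher group held 50 or more UMIs and 20 CPM or more, and called where it differed at least 2-fold in the same direction in both libraries. Of 4752 genes, 109 (2.29%) were higher and 123 (2.59%) lower in members, and the median log2 ratio of all of them was -0.09 in library 1 and -0.14 in library 2. Both groups were cut from the same counts, so this is a description and was not tested statistically. As a check chosen after seeing the data, the 5 members of each library with the most UMIs of a gene were left out for that gene. Then 73 of the 109 genes were still called higher, and each gene with values here that was not is named as such. Where values come in pairs, that of library 1 is given before that of library 2.

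The 12 genes that stood furthest above C1q-high macrophages included carriers of fatty acids and proteases. Spp1, which chose the cells, stood at 17661 and 13575 CPM in members, against 59.7 and 54.5 CPM in C1q-high macrophages. Gpnmb stood at 3311 CPM (3257 to 3366) in members of library 1 and 3256 CPM (3159.8 to 3355) in those of library 2, against 598 CPM (579 to 617) and 416 CPM (399 to 432) in C1q-high macrophages, a log2 ratio of 2.45 and 2.94. Fabp4, a carrier of fatty acids best known from fat cells and macrophages, stood at 1815 and 1481 CPM in members, against 93.4 and 70.3 CPM in C1q-high macrophages, a log2 ratio of 4.14 and 4.21. Its relative Fabp5 stood at 2438 and 2140.4 CPM in members, against 301 and 233 CPM in C1q-high macrophages (2.98 and 3.14). Both carriers were far above the other macrophages, by a like factor in library 1 and library 2.

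Cd9, a tetraspanin that organises membrane proteins, stood at 726 and 733 CPM in members, against 83.2 and 75.2 CPM in C1q-high macrophages (log2 ratio 2.98 and 3.12). Ctsk, the collagen-cutting cathepsin K of osteoclasts, stood at 160.0 and 330.2 CPM in members, against 9.09 and 3.03 CPM in C1q-high macrophages (3.16 and 4.71). Mmp12, the macrophage elastase, stood at 201 and 422 CPM in members, against 21.9 and 10.1 CPM in C1q-high macrophages (2.72 and 4.43). These proteases were higher in both libraries, but 5 cells held 28.3% of the Ctsk UMIs of members of library 1 and 56.8% in library 2. For Mmp12 the corresponding shares were 27.8% and 61.1%.

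The rest of the 12 named genes were of mixed kinds. Arg1 stood at 155 and 82.2 CPM in members, against 5.48 and 2.69 CPM in C1q-high macrophages (log2 ratio 3.42 and 2.86). Fn1, part of the rule, stood at 3266 and 1518 CPM in members, against 331 and 215 CPM in C1q-high macrophages (3.26 and 2.76). Prdx5, a peroxiredoxin that breaks down peroxides, stood at 5748 and 4215 CPM in members, against 1018 and 728 CPM in C1q-high macrophages (2.49 and 2.52). Krt75, a keratin, and Sema3c, a secreted semaphorin, were higher in both libraries. Krt75 stood at 77.7 and 67.1 CPM in members, against 2.98 and 1.85 CPM in C1q-high macrophages (2.76 and 2.70). Sema3c stood at 76.5 and 79.9 CPM in members, against 4.70 and 4.37 CPM in C1q-high macrophages (2.56 and 2.65). For all 12 genes the intervals of members and C1q-high macrophages lie apart in both libraries. They were chosen for the highest ratios, and Spp1, Gpnmb and Fn1 are in the rule, so this follows largely from the choice. All 12 were still called without the 5 highest members.

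**Figure D1:**
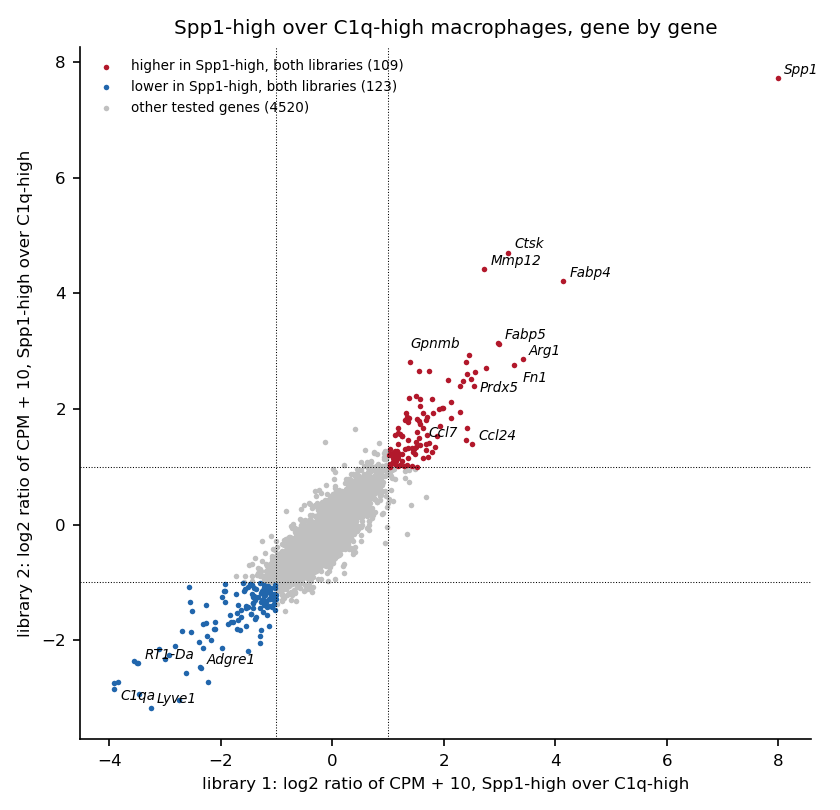
Log2 ratio of CPM plus 10, Spp1-high over C1q-high macrophages, in library 1 (horizontal axis) and library 2 (vertical axis), 1 point per tested gene. Red points are the 109 genes at least 2-fold higher in both libraries and blue points the 123 at least 2-fold lower, with dotted lines at 2-fold; Fabp4 lies at 4.14 and 4.21, and C1qa at -3.91 and -2.75.

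Of 19 tested genes of a list for scar-associated and lipid-associated macrophages, 9 were higher and 1 lower, with a median log2 ratio of 0.77 and 0.55. Lgals3, galectin-3, stood at 4048 and 3513 CPM in members, against 754 and 567 CPM in C1q-high macrophages (2.41 and 2.61). Cd63, a tetraspanin of lysosomes, stood at 3439.6 and 3373 CPM in members, against 1507 and 1058 CPM in C1q-high macrophages (1.19 and 1.66). Lpl, the lipase that frees fatty acids from lipoproteins, stood at 140.1 and 247 CPM in members, against 18.6 and 26.4 CPM in C1q-high macrophages (2.39 and 2.82). Plin2, the coat protein of lipid droplets, and Apoc1, an apolipoprotein, were also called higher. Plin2 stood at 693 and 551 CPM in members, against 185 and 211 CPM in C1q-high macrophages, and Apoc1 at 145 and 183 CPM in members, against 34.8 and 70.5 CPM in C1q-high macrophages. Apoc1 rested on few cells, since 5 members held 67.3% and 72.4% of its UMIs, and without them its log2 ratios were 0.38 and -0.38, which ends the call.

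The receptor gene that often names such cells did not follow. Trem2, a lipid-sensing receptor, stood at 666 and 836 CPM in members, against 828 and 669 CPM in C1q-high macrophages, with log2 ratios of -0.31 and 0.32 that differ in sign. Its signalling partner Tyrobp stood at 4520.1 and 4444 CPM in members, against 4027 and 3883 CPM in C1q-high macrophages (0.17 and 0.19). Apoe, the apolipoprotein that carries cholesterol out of cells, stood at 25376 and 24332 CPM in members, against 36186 and 19237 CPM in C1q-high macrophages, and its log2 ratios of -0.51 and 0.34 also differ in sign. Both groups thus expressed Trem2 and Apoe at levels within 2-fold. Ms4a7, a membrane protein of tissue macrophages, was the gene of the list that was lower, at 50.6 and 175 CPM in members, against 349 and 382 CPM in C1q-high macrophages.

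Lysosomal genes were less uniform. Of 22 tested, 4 were higher and none lower, with a median log2 ratio of 0.05 and 0.30, against -0.09 and -0.14 for all tested genes. The proteases Ctsd and Ctsl, the Ctsk already named and the proton pump subunit Atp6v1b2 were the 4, and Atp6v1b2 was not called without the 5 highest members (1.08 and 0.92). Ctsd stood at 2097 and 2204 CPM in members, against 837 and 574 CPM in C1q-high macrophages (1.31 and 1.92), and Ctsl at 2303 and 2147 CPM in members, against 982 and 721 CPM in C1q-high macrophages (1.22 and 1.56). Ctsb, cathepsin B, stood at 2476 and 2158 CPM in members, against 1582 and 1184 CPM in C1q-high macrophages, and the cathepsin inhibitor Cstb at 2589 and 2131 CPM in members, against 1023 and 1061 CPM in C1q-high macrophages. Of 23 tested transcription factors, none was called in either direction, with a median of -0.36 and -0.44. Mitf, a regulator of lysosomal genes and of Gpnmb, stood at 96.03 and 96.5 CPM in members, against 46.2 and 54.1 CPM in C1q-high macrophages (0.92 and 0.73), which is under 2-fold. Tfeb, its relative, stood at 59.1 and 54.3 CPM in members, against 41.7 and 48.3 CPM in C1q-high macrophages.

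Genes that rebuild and cut matrix stood above C1q-high macrophages. Of 13 tested, 7 were higher and none lower, with a median log2 ratio of 1.24 and 1.02. Among them, besides Mmp12, were Mmp14, Timp1, Plaur, Tgm2 and Vcan. Mmp14, a membrane-bound protease that activates other proteases, stood at 69.1 and 65.6 CPM in members, against 15.7 and 9.75 CPM in C1q-high macrophages (1.62 and 1.94). Timp1, an inhibitor of such proteases, stood at 384 and 199.8 CPM in members, against 145 and 93.2 CPM in C1q-high macrophages (1.34 and 1.02). Without the 5 highest members Timp1 had log2 ratios of 1.18 and 0.68 and was not called. Timp2 stood at 1395 and 1173 CPM in members, against 1091 and 726 CPM in C1q-high macrophages (0.35 and 0.68) and was not called. Tgm2, a transglutaminase that cross-links matrix proteins, stood at 209.7 and 85.9 CPM in members, against 31.3 and 20.01 CPM in C1q-high macrophages (2.41 and 1.68). Plaur, the urokinase receptor, stood at 193 and 184 CPM in members, against 75.8 and 73.5 CPM in C1q-high macrophages, and likewise lost the call without the 5 highest members (1.16 and 0.91).

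Receptors through which osteopontin or Gpnmb act on the cell surface gave a mixed picture. Of 7 tested, Sdc1 was higher and Itgb5 lower, with a median of 0.55 and 0.31. Cd44, a receptor for hyaluronan and osteopontin, stood at 576 and 452 CPM in members, against 214 and 265 CPM in C1q-high macrophages (1.38 and 0.75), and was not called because library 2 stayed under 2-fold. The syndecan Sdc1 stood at 207 and 142 CPM in members, against 57.5 and 33.6 CPM in C1q-high macrophages (1.69 and 1.81). The integrin chain Itgb5 stood at 20.2 and 32.4 CPM in members, against 148 and 164 CPM in C1q-high macrophages (-2.39 and -2.03). Itgb1, the shared chain of many matrix receptors, stood at 535 and 553 CPM in members, against 458 and 459.7 CPM in C1q-high macrophages.

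Chemokines split in direction. Of 9 tested CC chemokines, Ccl7, Ccl9 and Ccl24 were higher and Ccl4 and Ccl6 lower, with a median of 0.75 and -0.05. None of the 3 that were higher was called without the 5 highest members. Ccl24 stood at 1309 and 354 CPM in members, against 221 and 128 CPM in C1q-high macrophages (2.51 and 1.40). In library 2, 5 members held 72.8% of its UMIs, and without them the level was 100.5 CPM, below that of C1q-high macrophages, with log2 ratios of 2.26 and -0.33 in library 1 and library 2. Ccl7 stood at 612 and 288 CPM in members, against 198 and 79.7 CPM in C1q-high macrophages (1.58 and 1.73), and without the 5 highest members, which held 52.4% of its UMIs in library 2, the log2 ratios were 1.23 and 0.78. Those of Ccl9 were then 0.89 and 1.196. Ccl6, a chemokine of rodent macrophages, stood at 136 and 162 CPM in members, against 972 and 1404 CPM in C1q-high macrophages (-2.75 and -3.04), and was among the 12 genes that stood lowest. Ccl2, the main attractant of CCR2 monocytes, stood at 1323 and 667 CPM in members, against 785 and 487 CPM in C1q-high macrophages (0.75 and 0.45), and was not called.

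In the interleukin-1 system the antagonist was higher and the cytokine lower. Il1rn, which encodes the antagonist of the interleukin-1 receptor, stood at 658 and 533 CPM in members, against 160.4 and 124 CPM in C1q-high macrophages (1.97 and 2.02). Il1b stood at 167 and 122 CPM in members, against 426 and 495 CPM in C1q-high macrophages (-1.30 and -1.93). Of 10 tested genes of CXC chemokines and interleukin-1, Il1rn was the one that was higher and Il1b and Cxcl10 were lower, with a median of -0.93 and -0.98. Cxcl2, which attracts neutrophils, stood at 2155 and 1432 CPM in members, against 2877 and 3114 CPM in C1q-high macrophages (-0.42 and -1.11), and Pf4, platelet factor 4, which macrophages also make, at 499 and 655 CPM in members, against 1671 and 1225 CPM in C1q-high macrophages.

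Arginine metabolism was called for Arg1 and Ass1 out of 9 tested genes, with a median of 0.41 and 0.21. Ass1, which makes argininosuccinate on the way back to arginine, stood at 26.7 and 39.96 CPM in members, against 4.86 and 10.3 CPM in C1q-high macrophages (1.30 and 1.30). In library 2, 5 members held 60.4% of its UMIs, and without the 5 highest members its log2 ratios were 1.01 and 0.40, which ends the call. The arginine transporter Slc7a2 did not reach the minimum for a call. It stood at 38.7 and 27.9 CPM in members, against 0.783 and 0.336 CPM in C1q-high macrophages, and members held 43.04% and 24.2% of its UMIs in library 1 and library 2. Sat1, which breaks down the polyamines made from ornithine, stood at 717 and 733 CPM in members, against 1063 and 1139 CPM in C1q-high macrophages, which is a difference of under 2-fold.

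Glycolysis stood higher in members and the respiratory chain hardly at all. Of 18 tested genes of glycolysis and the hypoxia response, 10 were higher and none lower, with a median of 1.21 and 1.08. Without the 5 highest members Pkm and Slc16a3 were no longer called. Slc2a1, the glucose transporter, stood at 77.7 and 94.99 CPM in members, against 16.9 and 19.00 CPM in C1q-high macrophages (1.70 and 1.86). Aldoa, an aldolase, stood at 1746 and 1406 CPM in members, against 770.2 and 623 CPM in C1q-high macrophages (1.17 and 1.16), and Ldha, which makes lactate, at 1664 and 1209 CPM in members, against 585 and 511 CPM in C1q-high macrophages (1.49 and 1.23). The genes ran from uptake of glucose to lactate, and the intervals of these 3 lie apart in both libraries. Of 19 tested respiratory chain genes none was called, with a median of 0.29 and 0.42. Cox4i1, a subunit of cytochrome oxidase, stood at 1489.6 and 1548 CPM in members, against 1270.1 and 1255 CPM in C1q-high macrophages.

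Among antioxidant genes of the NRF2 programme, Prdx5 and Txn1 were called out of 19 tested, with a median of 0.45 and 0.62. Txn1, thioredoxin, stood at 1519.5 and 1907 CPM in members, against 688 and 781 CPM in C1q-high macrophages (1.13 and 1.28). Gpx1, glutathione peroxidase, stood at 2549.9 and 2597 CPM in members, against 2331 and 2138 CPM in C1q-high macrophages (0.13 and 0.28). Nfe2l2, which encodes NRF2 itself, stood at 106 and 108 CPM in members, against 197 and 220.1 CPM in C1q-high macrophages (-0.83 and -0.97). Its message stood lower in members, under 2-fold, while Prdx5 and Txn1 were called higher. For iron and heme, Cd163 was the gene called out of 10 tested, and it was lower. Fth1, the ferritin heavy chain, stood at 27561 and 20569 CPM in members, against 14236 and 10551 CPM in C1q-high macrophages (0.95 and 0.96), just under 2-fold. Hmox1, which breaks down heme, stood at 339.8 and 347 CPM in members, against 339 and 174 CPM in C1q-high macrophages (0.01 and 0.96), a difference in library 2 alone.

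The 12 genes that stood furthest below C1q-high macrophages included genes of complement, antigen presentation and resident macrophages. The C1q genes chose the C1q-high macrophages, so C1qa at 357 and 940.1 CPM in members, against 5520.2 and 6372 CPM in C1q-high macrophages, is a description, as are C1qb at 292 and 587 CPM in members, against 4315 and 3937 CPM in C1q-high macrophages, and C1qc at 279.7 and 632 CPM in members, against 4371 and 4592 CPM in C1q-high macrophages. Members were not free of C1q. No C1q UMI was found in 323 members of library 1 (65.7%) and 98 of library 2 (53.3%), while 47 (9.55%) and 34 (18.5%) held 0.3% or more of their UMIs as C1q.

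Of 7 tested class II genes, which present antigen to CD4 T cells, 5 were lower and none higher, with a median of -3.11 and -2.33. RT1-Da stood at 409 and 981 CPM in members, against 4657 and 5212 CPM in C1q-high macrophages (-3.48 and -2.40). RT1-Db1 stood at 313 and 739.6 CPM in members, against 3771 and 3851 CPM in C1q-high macrophages, and RT1-Ba at 149 and 397 CPM in members, against 1802 and 2138 CPM in C1q-high macrophages. Cd74, the invariant chain that guides class II molecules, stood at 979 and 1834 CPM in members, against 7873 and 9279 CPM in C1q-high macrophages (-2.99 and -2.33). The RT1 genes belong to families of near-identical copies, so reads could be split between them and single RT1 values are uncertain, but all 4 genes were lower together.

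Of 12 tested genes of resident and reparative macrophages, 5 were lower and Ccl24 was higher (not without the 5 highest members), with a median of -1.29 and -0.89. Lyve1, a hyaluronan receptor of macrophages along vessels, stood at 37.1 and 21.1 CPM in members, against 439 and 269 CPM in C1q-high macrophages (-3.25 and -3.17). Mrc1, the mannose receptor, stood at 199.7 and 142 CPM in members, against 889 and 522 CPM in C1q-high macrophages (-2.10 and -1.80), and Cd163, the receptor for haemoglobin bound to haptoglobin, at 8.58 and 3.77 CPM in members, against 99.01 and 24.9 CPM in C1q-high macrophages. Folr2, a folate receptor, was closer, at 341 and 373 CPM in members, against 595 and 462 CPM in C1q-high macrophages (-0.79 and -0.30). Of the macrophage marker list, 6 of 14 genes were lower and none higher. C1qa, C1qb and C1qc, which chose the C1q-high macrophages, are among the 6, with Mrc1, Ms4a7 and Adgre1. Adgre1, the F4/80 antigen, stood at 28.8 and 25.6 CPM in members, against 188 and 190.0 CPM in C1q-high macrophages (-2.35 and -2.49). Csf1r, the receptor of the macrophage growth factor, stood at 307 and 296 CPM in members, against 719 and 576 CPM in C1q-high macrophages. Lyz2, lysozyme, was nearly equal, at 15966 and 17674 CPM in members and 16359 and 16843 CPM in C1q-high macrophages.

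Other genes among the 12 lowest were Fcgrt, Klra2 and Cxcl13. Fcgrt, the neonatal Fc receptor that recycles IgG and albumin, stood at 14.6 and 13.6 CPM in members, against 261 and 171 CPM in C1q-high macrophages (-3.46 and -2.94). Klra2, a lectin-like receptor of a multigene family whose copies may share reads, stood at 5.57 and 14.3 CPM in members, against 70.03 and 125 CPM in C1q-high macrophages. Cxcl13, which attracts B cells, stood at 2.55 and 6.03 CPM in members, against 66.9 and 85.4 CPM in C1q-high macrophages, and 1 member of each library held its UMIs. All 12 were low in members in both libraries, with intervals apart from those of C1q-high macrophages. They were chosen for the lowest ratios, and C1qa, C1qb and C1qc chose the comparison cells, so this follows largely from the choice.

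Cytoskeletal and calcium-binding genes stood higher and immediate early genes lower. Of 20 tested genes of integrin signalling, annexins and S100 proteins, 10 were higher and none lower, with a median of 1.06 and 1.08. S100a6 stood at 4309 and 5060.4 CPM in members, against 1077 and 1247 CPM in C1q-high macrophages (1.99 and 2.01), and Lgals1, galectin-1, at 1096 and 1821 CPM in members, against 309.7 and 394 CPM in C1q-high macrophages. Vim, the intermediate filament of mesenchymal cells and leukocytes, stood at 10815 and 10853 CPM in members, against 5448 and 5502 CPM in C1q-high macrophages (0.99 and 0.98). Of 20 tested immediate early genes, which respond within minutes to stimulation and also to tissue digestion, 4 were lower and none higher, with a median of -0.64 and -0.79. Zfp36, which destabilises cytokine messages, stood at 167 and 217 CPM in members, against 476 and 654 CPM in C1q-high macrophages (-1.46 and -1.55). Fos stood at 2224 and 2575 CPM in members, against 3764 and 4389.7 CPM in C1q-high macrophages (-0.76 and -0.77).

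Several lists held few or no called genes. Of 10 tested growth factors none was called, with a median of 0.01 and -0.04. Vegfa, which drives vessel growth, stood at 212 and 116 CPM in members, against 69.1 and 54.7 CPM in C1q-high macrophages (1.49 and 0.96), just under 2-fold in library 2. Igf1, a growth factor of reparative macrophages, stood at 161 and 198 CPM in members, against 335 and 302 CPM in C1q-high macrophages (-1.01 and -0.58). Of 9 tested genes of dead-cell uptake, Anxa1 was higher, with a median of -0.40 and -0.19. Of 13 tested genes of interferon gamma and class I none was called, with a median of -0.58 and -0.45, and of 17 type I interferon genes Ifit2 and Cxcl10 were lower, with a median of -0.44 and -0.49. Of 14 genes of the unfolded protein response none was called, with a median of -0.21 and 0.20.

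Members were also set beside 947 monocyte-like cells (612 in library 1 and 335 in library 2), which held a UMI of Fcnb and of Vcan and little C1q or Spp1. Here 216 of 4466 tested genes (4.84%) were at least 2-fold higher in members in both libraries and 240 (5.37%) lower, with a median log2 ratio of -0.03 and -0.11. Without the 5 highest members of each library 150 of the 216 were still called, and Ccl24 was not. Of the 109 genes that were higher than in C1q-high macrophages, 50 were also higher than in monocyte-like cells, and these make up 23.2% of the 216. On this side Trem2 and Apoe stood out. Trem2 stood at 666 and 836 CPM in members, against 14.9 and 21.6 CPM in monocyte-like cells (4.76 and 4.74), and Apoe at 25376 and 24332 CPM in members, against 905 and 527 CPM in monocyte-like cells (4.79 and 5.50).

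Of 20 tested genes of the scar and lipid list, 14 were higher than in monocyte-like cells and none lower, with a median of 1.72 and 2.30. Gpnmb stood at 3311 and 3256 CPM in members, against 185 and 184 CPM in monocyte-like cells (4.09 and 4.08). Fabp5 stood at 2438 and 2140.4 CPM in members, against 327 and 357 CPM in monocyte-like cells (2.86 and 2.55). Of 9 tested resident and reparative genes 7 were higher, with a median of 2.49 and 2.40. Ccl24 is among them and its own log2 ratios are these medians, but it was not called without the 5 highest members. Of 13 macrophage markers 7 were higher, with a median of 1.19 and 1.25. C1qa, C1qb and C1qc are among these 7, and monocyte-like cells were chosen for little C1q. Mrc1 stood at 199.7 and 142 CPM in members, against 44.7 and 25.04 CPM in monocyte-like cells. Mrc1 was thus lower in members than in C1q-high macrophages and higher than in monocyte-like cells.

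**Figure D2:**
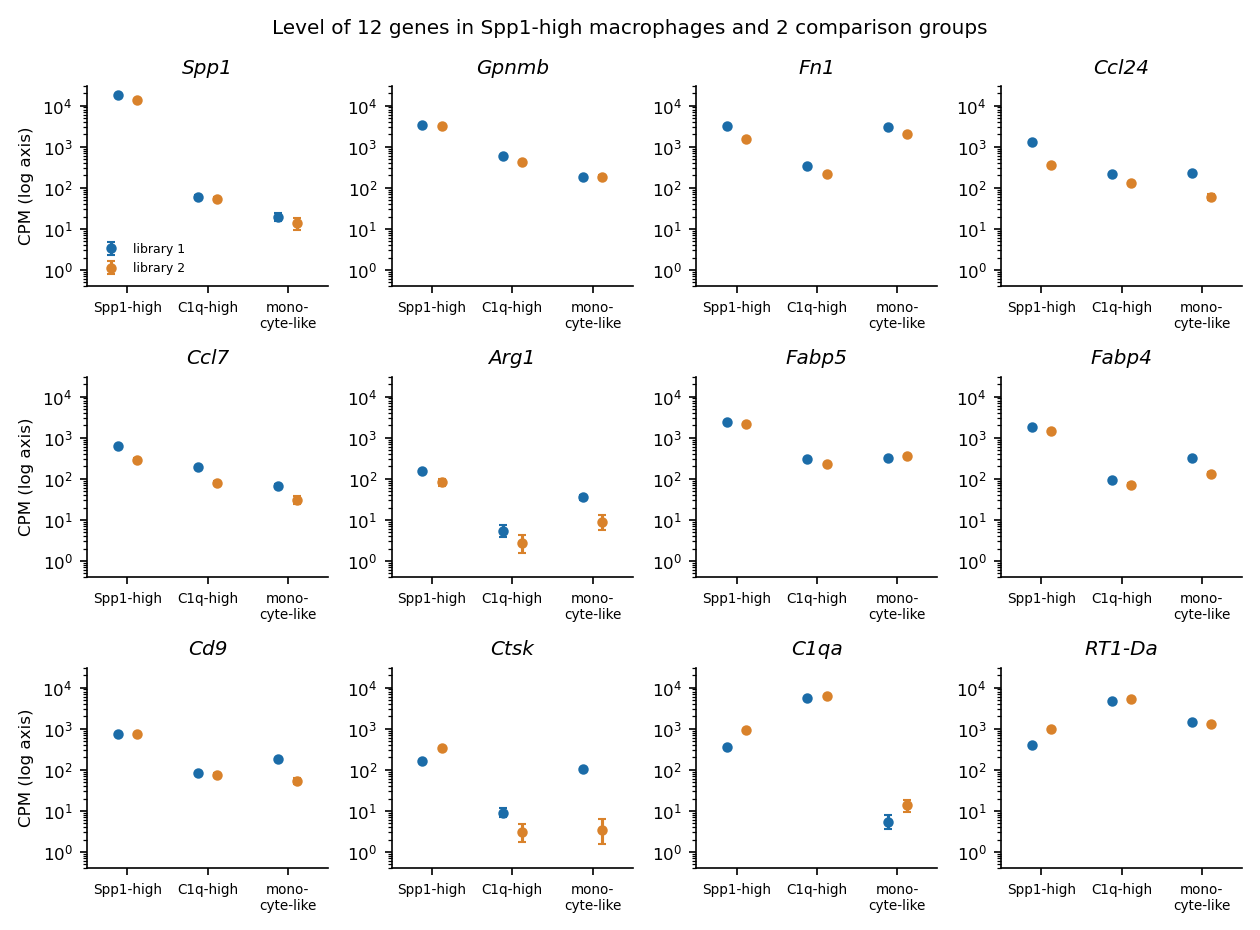
Level in CPM (vertical axis, log scale) of 12 genes in Spp1-high macrophages, C1q-high macrophages and monocyte-like cells (horizontal axis). Points are the sums of library 1 and library 2 and error lines exact Poisson 95% intervals, which are mostly smaller than the points; Gpnmb stands at 3311 and 3256 CPM in Spp1-high macrophages, against 598 and 416 CPM in C1q-high macrophages and 185 and 184 CPM in monocyte-like cells.

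Other features of members were shared with monocyte-like cells. Fn1 stood at 3266 and 1518 CPM in members, against 3076 and 2041 CPM in monocyte-like cells, with log2 ratios of 0.09 and -0.42. Of 19 tested glycolysis genes none was higher and Vegfa was lower, with a median of 0.19 and 0.12, and Ldha stood at 1664 and 1209 CPM in members, against 2424 and 1618 CPM in monocyte-like cells. Prdx5 stood at 5748 and 4215 CPM in members, against 6682 and 3384 CPM in monocyte-like cells (-0.22 and 0.32). Fn1, Ldha and Prdx5 thus separated members from C1q-high macrophages but not from monocyte-like cells. Ass1 took the other side, at 26.7 and 39.96 CPM in members, against 214 and 184 CPM in monocyte-like cells. Of 6 tested classical monocyte markers 4 were lower, with a median of -2.36 and -2.22, but Fcnb and Vcan had chosen the monocyte-like cells.

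Within cells that met every other criterion, levels were followed along the Spp1 share in steps of 0.05 to 0.15%, 0.15 to 0.3%, 0.3 to 0.6%, 0.6 to 1.2% and 1.2% or more of UMIs. The last 3 steps are members. The steps held 246, 153, 136, 129 and 227 cells in library 1 and 177, 71, 57, 56 and 71 cells in library 2. Fabp5 was higher at each step, at 842, 1183, 1517, 2213 and 3054 CPM in library 1 and 766, 1192, 1735, 1811 and 2852 CPM in library 2. Lgals3 stood at 1829, 2218, 2734, 4040.0 and 4766 CPM in library 1 and 1369.9, 1901, 2676, 3279 and 4568 CPM in library 2. Cd9 stood at 298, 404, 449, 570.2 and 957 CPM in library 1 and 341, 365, 515, 791 and 897 CPM in library 2. Fabp5, Lgals3 and Cd9 were higher at every step in both libraries, though intervals of neighbouring steps overlap in places. Fabp4 did so in library 1, at 250.3, 428, 703, 1347 and 2659 CPM, while in library 2, at 323, 1281, 720.1, 1318 and 2395 CPM, the second step stood above the third.

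C1qa ran the other way, at 1425, 923, 545, 507 and 179 CPM in library 1 and 2558, 1379, 1601, 593 and 599 CPM in library 2. Mrc1 stood at 481, 407, 274, 242 and 138 CPM in library 1 and 412, 263, 137, 179 and 115 CPM in library 2. RT1-Da stood at 955, 1221, 554, 455 and 307 CPM in library 1 and 1754, 1610.5, 1072, 1282 and 609.7 CPM in library 2. The first step was highest or near it and the last lowest or level with the lowest in library 1 and library 2, though not every step followed. Trem2 was also lowest in the last step, at 966, 921, 729.9, 793 and 567 CPM in library 1 and 1084, 983, 841, 922 and 751 CPM in library 2. Ctsk was concentrated in the cells with the most Spp1, at 48.9, 52.3, 54.3, 137 and 229 CPM in library 1 and 35.1, 17.5, 24.2, 203 and 755 CPM in library 2. In library 2 only 38 members had a Ctsk UMI, and 5 members held 56.8% of these UMIs. All of these levels are shares of 1 total, so a cell with more Spp1 has less room for other genes. Spp1 itself took 29617 and 27566 CPM of that total in the last step, and its part in the lower levels was not tested.

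**Figure D3:**
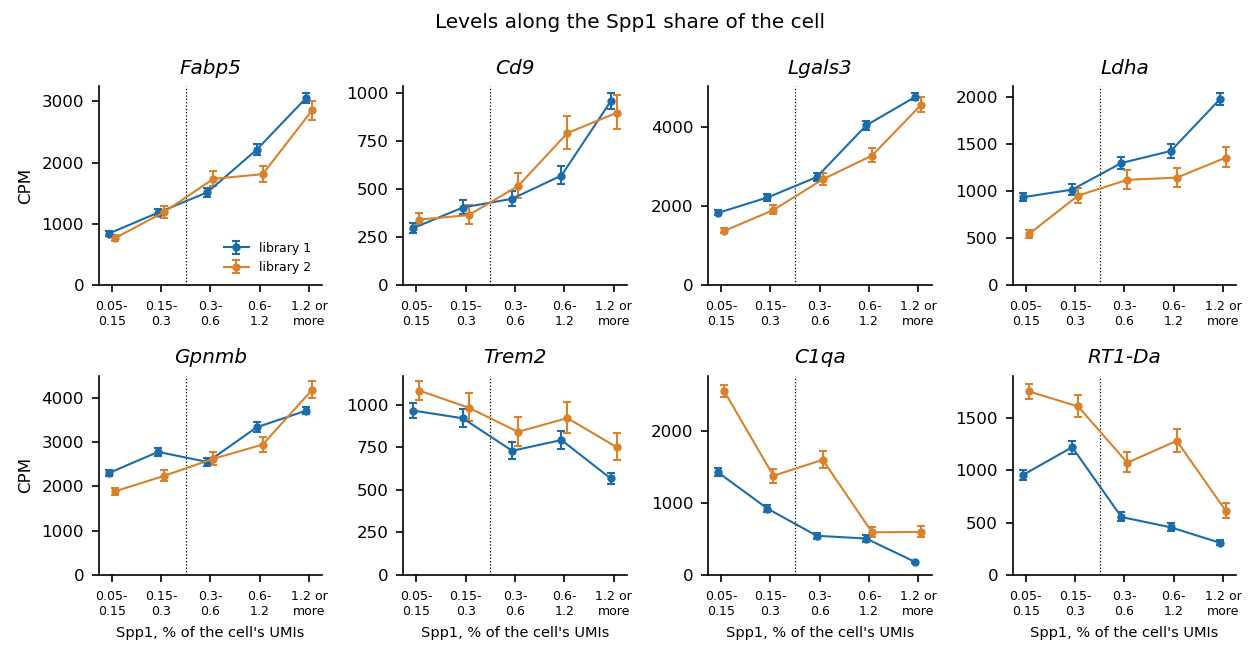
Level in CPM (vertical axis) of named genes in cells that met all other criteria, by Spp1 share of UMIs (horizontal axis, 5 steps from 0.05% up). Lines and points stand for library 1 and library 2, error lines are exact Poisson 95% intervals and the dotted line is the 0.3% threshold. Fabp5 climbs to 3054 and 2852 CPM in the last step of library 1 and library 2, while C1qa drops to 179 and 599 CPM.

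Cells just inside and just outside the 0.3% threshold were alike in Gpnmb and Fabp5. Just inside (0.3 to 0.4%) lay 55 and 25 cells, and just outside (0.2 to 0.3%) 82 and 39. Spp1 itself stood at 3387 and 3430.4 CPM inside and 2505 and 2339 CPM outside. Gpnmb stood at 2349 and 2378 CPM inside and 2678 and 2155 CPM outside, and Fabp5 at 1284 and 1523 CPM inside and 1190.2 and 1103 CPM outside. Gpnmb and Fabp5 differed by under 1.5 times across the threshold. Ccl24 stood at 420.3 and 106 CPM inside and 907 and 459.6 CPM outside, so it did not start at the threshold.

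Members with much C1q differed from the rest of the members. The 47 and 34 members with 0.3% or more C1q were set beside the 445 and 150 under it. They also held less Spp1, with a median of 0.61% and 0.56% of UMIs, against 1.15% and 1.02% in the rest. The differences below therefore cannot be tied to C1q apart from Spp1. Ccl24 stood at 146 and 3.85 CPM in members with much C1q and 1436 and 439.7 CPM in the rest. Fn1 stood at 831 and 828 CPM in members with much C1q and 3532 and 1686 CPM in the rest, and Ctsk at 32.97 and 42.3 CPM in members with much C1q and 174 and 400.3 CPM in the rest. Ccl24, Fn1 and Ctsk had lower CPM where C1q was high, in both libraries. In library 2, 5 members held 72.8% of the Ccl24 UMIs and 56.8% of the Ctsk UMIs, and the 3.85 CPM of Ccl24 was 1 UMI. A Ctsk UMI was found in 9.46% and 10.2% of thinned members with a C1qa UMI. Without a C1qa UMI the shares were 9.98% and 14.2%, and the intervals overlap in both libraries. RT1-Da stood at 1665 and 2999 CPM in members with much C1q and 272 and 489 CPM in the rest, and Ms4a7 at 165 and 504 CPM in members with much C1q and 38.1 and 94.7 CPM in the rest. Trem2 stood at 930.2 and 966 CPM in members with much C1q and 638 and 804 CPM in the rest. RT1-Da, Ms4a7 and Trem2 were higher there. Arg1 differed in direction between the libraries, at 44.7 and 243 CPM in members with much C1q and 167 and 43.1 CPM in the rest. In library 2, 5 members held 67.0% of the Arg1 UMIs.

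The markers were found in the same members only in part. In thinned members of library 1, Ccl24 was found in 54.9% (40.3 to 68.9; 28 of 51) of cells with an Arg1 UMI and in 16.1% (12.8 to 19.9; 70 of 434) of cells without. It was found in 48.03% (39.9 to 56.3; 73 of 152) of members with a UMI of Vcan, the matrix proteoglycan versican of monocytes, and in 7.51% (4.92 to 10.9; 25 of 333) of members without. With a Ctsk UMI it was found in 4.17% (0.509 to 14.3; 2 of 48), and without in 21.97% (18.2 to 26.1; 96 of 437). Ccl24 thus went with Arg1 and Vcan and was rare with Ctsk in library 1. Mmp12 was found in 31.2% (18.7 to 46.3; 15 of 48) of members of library 1 with a Ctsk UMI and in 10.8% (8.01 to 14.04; 47 of 437) of those without.

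Library 2 had fewer such cells. Ccl24 was found in 25.9% (11.1 to 46.3; 7 of 27) of its members with a Vcan UMI and in 3.52% (1.15 to 8.03; 5 of 142) of those without. Mmp12 was found in 59.1% (36.4 to 79.3; 13 of 22) of members with a Ctsk UMI and in 10.9% (6.35 to 17.1; 16 of 147) of those without. The pairs Vcan with Ccl24 and Ctsk with Mmp12 showed the same order as in library 1, with intervals apart. With Arg1, Ccl24 was found in 22.2% (2.81 to 60.01; 2 of 9) and without in 6.25% (3.04 to 11.2; 10 of 160), and these intervals overlap. With Ccl7 the order was the reverse of library 1, again with overlapping intervals. Ccl24 was found in 3.125% (0.0791 to 16.2; 1 of 32) with Ccl7 and 8.03% (4.08 to 13.9; 11 of 137) without. Cells of 1 library share their source, so these shares describe the libraries, and no test was made across them.

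**Figure D4:**
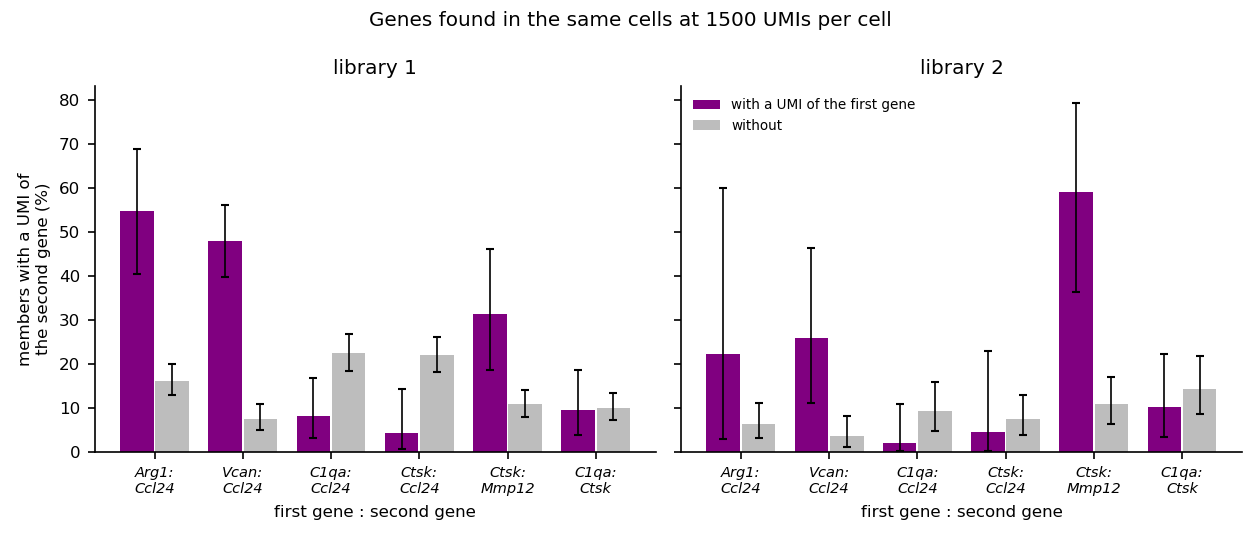
Share of thinned Spp1-high macrophages with a UMI of a second gene (percent, vertical axis) among cells with and without a UMI of a first gene, by library, with exact 95% intervals. In library 1 Ccl24 stands at 54.9% with Arg1 and 16.1% without, and in library 2 Mmp12 stands at 59.1% with Ctsk and 10.9% without.

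Library 1 and library 2 were then compared within members, as log2 of CPM plus 10 in library 1 over library 2. Of 4405 tested genes, 110 (2.5%) were at least 1.5-fold higher in library 1 and 131 (2.97%) in library 2, and the median of all log2 ratios was 0.04. The same comparison in C1q-high macrophages gave 74 (1.35%) and 156 (2.85%) of 5477 genes. Of the 110 genes higher in members of library 1, 28 (25.5%) were also called in that direction in C1q-high macrophages, and of the 131 higher in library 2, 62 (47.3%). These shared genes differed between the libraries in both kinds of macrophage. The numbers depend on settings: with 1 CPM added in place of 10, 209 genes were higher in library 1. In the 215 members of library 1 and 80 of library 2 with no S100a8 or S100a9 UMI, 60 of the 110 and 60 of the 131 genes remained called.

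Of 9 tested CC chemokines 4 were higher in members of library 1 and Ccl4 and Ccl9 in members of library 2, with a median log2 ratio of -0.06. Of 13 tested genes of matrix and proteases 5 were higher in library 1 and Mmp12 in library 2, with a median of 0.15. Ccl24 stood at 1309 CPM (1275 to 1343) in members of library 1 and 354 CPM (323 to 388) in those of library 2, a log2 ratio of 1.86. In library 2, 5 cells held 72.8% of its UMIs, and without the 5 highest members of each library the ratio was 3.32. Fn1 stood at 3266 CPM (3212 to 3320.1) in members of library 1 and 1518 CPM (1452 to 1585) in those of library 2 (1.10). Vcan stood at 712 CPM (687 to 738) in members of library 1 and 260.1 CPM (233 to 289) in those of library 2 (1.42). Among members Ccl7 had a log2 ratio of 1.06 and Arg1 of 0.84. Without the 5 highest members of each library these were 1.67 and 1.72. These 5 are a larger part of the 184 members of library 2 than of the 492 of library 1. Leaving them out therefore tends to raise the ratio. All 4 of Fn1, Ccl24, Ccl7 and Arg1 were higher in members of library 1, while Gpnmb, at 3311 and 3256 CPM, was nearly equal. In C1q-high macrophages Vcan (log2 ratio 1.26), Ccl24 (0.74) and Fn1 (0.60) were also higher in library 1. Ccl7 stood there at 198 and 79.7 CPM in library 1 and library 2. Monocyte-like cells had log2 ratios of 0.88 for Vcan, 1.77 for Ccl24 and 0.59 for Fn1.

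The gene with the highest ratio was Dmkn, which encodes dermokine, a secreted protein best known from epidermis. It stood at 153 CPM in library 1 and 6.03 CPM in library 2 (3.34), with UMIs in 56 and 4 cells. Slpi, an inhibitor of neutrophil elastase, stood at 1313 CPM in library 1 and 325 CPM in library 2 (1.98), and G0s2, an inhibitor of fat breakdown that neutrophils express strongly, at 167 CPM in library 1 and 37.7 CPM in library 2 (1.90). Without the 5 highest members of each library these ratios were 3.15 and 2.29. Slpi and G0s2 were also higher in lymphocytes of library 1. T cells held 508 and 113 CPM of Slpi and 338 and 127 CPM of G0s2 in library 1 and library 2, and B cells 507 and 209 CPM and 478 and 209.7 CPM. S100a8 and S100a9, which neutrophils make in quantity, stood at 114 and 52.02 CPM and 235 and 180.2 CPM in members of library 1 and library 2. Their levels in T cells were 888 and 598 CPM and 2116 and 1609.5 CPM. The rule held S100a8 and S100a9 under 2% of UMIs in members, while T cells and B cells had no such limit. Levels of S100a8, S100a9, Slpi and G0s2 in members and lymphocytes thus come from cells that were not chosen alike. The part of free neutrophil RNA in Slpi and G0s2 was not tested.

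Others of the 12 genes highest in library 1 were of mixed kinds. Prg4, lubricin, stood at 162 CPM in library 1 and 42.2 CPM in library 2 (1.72). Tgm2 stood at 209.7 CPM in library 1 and 85.9 CPM in library 2 (1.195) and Asgr2, a lectin of macrophages and liver, at 52.2 CPM in library 1 and 18.8 CPM in library 2 (1.11). Gsg1, a gene named for germ cells, stood at 53.8 CPM in library 1 and 15.1 CPM in library 2 (1.35), and Fbln1, the matrix protein fibulin, at 51.7 CPM in library 1 and 18.8 CPM in library 2 (1.10). For all 12 the ratio kept its sign without the 5 highest members, a check that tends to favour library 1. The intervals of library 1 and library 2 lie apart, which follows largely from choosing the highest ratios. In C1q-high macrophages 7 of the 12 were also at least 1.5-fold higher in library 1.

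By list, 5 of 13 tested matrix and protease genes were higher in library 1 and Mmp12 in library 2, with a median of 0.15. Timp1 stood at 384 CPM in library 1 and 199.8 CPM in library 2 (0.91). Of 11 tested growth factors 4 were higher in library 1, with a median of 0.51, among them Vegfa at 212 CPM in library 1 and 116 CPM in library 2 (0.82). Of 9 CC chemokines 4 were higher in library 1 and Ccl4 and Ccl9 in library 2, with a median of -0.06. Ccl2 stood at 1323 CPM in library 1 and 667 CPM in library 2 (0.98) and Ccl9 at 34.1 CPM in library 1 and 107 CPM in library 2 (-1.41). Of 21 glycolysis and hypoxia genes 2 were higher in library 1 and 1 in library 2, with a median of 0.31. None of 19 respiratory chain genes was called.

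Members of library 2 stood higher in interferon-response and antigen presentation genes. Of 13 tested type I interferon genes 9 were higher in library 2 and none in library 1, with a median of -0.69. Of 13 interferon gamma and class I genes 9 were higher in library 2, with a median of -0.88, and of 7 class II genes 5, with a median of -1.21. In library 2, 5 members held 49.7% of the RT1-Da UMIs and 57.3% of the RT1-Db1 UMIs. Without the 5 highest members of each library the log2 ratios were -0.82 for RT1-Da, -0.95 for RT1-Ba and -0.97 for RT1-Bb. RT1-Db1 then stood at -0.58, just under 1.5-fold, and Cd74 at -0.60. In C1q-high macrophages the log2 ratios were -0.16 for RT1-Da, -0.03 for RT1-Db1 and -0.25 for RT1-Ba, none of them called. Irf7, the transcription factor that amplifies interferon, stood at 27.4 CPM (22.7 to 32.8) in members of library 1 and 164 CPM (143 to 187) in those of library 2 (-2.22). Its UMIs were spread over many cells, 16.7% of members of library 1 and 52.7% of library 2. Ly6e, an interferon-induced surface protein, stood at 238 CPM in library 1 and 759 CPM in library 2 (-1.63) and was found in 60.4% and 81.5% of members.

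Of the 12 genes highest in members of library 2, 8 were also at least 1.5-fold higher there in C1q-high macrophages, Irf7 and Ly6e among them. The log2 ratio in C1q-high macrophages was -1.83 for Irf7 and -1.55 for Ly6e, with Irf7 at 65.6 and 258 CPM in library 1 and library 2. T cells held 39.1 and 77.5 CPM of Irf7 and 103 and 155 CPM of Ly6e in library 1 and library 2. B cells held 50.98 and 79.7 CPM of Irf7 and 442 and 436 CPM of Ly6e, so Ly6e was nearly equal in B cells of both libraries. Other interferon-induced genes among the 12 highest in library 2 were Mx1, an antiviral GTPase, at 16.7 CPM in library 1 and 94.99 CPM in library 2 (-1.98), Gvin1, another large GTPase, at 12.99 CPM in library 1 and 65.6 CPM in library 2 (-1.72), and Slfn4, a schlafen protein of myeloid cells, at 183 CPM in library 1 and 614 CPM in library 2 (-1.69). The class I genes RT1-S3 at 58.7 CPM in library 1 and 210.3 CPM in library 2 (-1.68) and RT1-CE5 at 209 CPM in library 1 and 587 CPM in library 2 (-1.45) and the class II gene RT1-Bb at 22.04 CPM in library 1 and 79.9 CPM in library 2 (-1.49) belong to families of near-identical copies and are uncertain one by one. In C1q-high macrophages the log2 ratios were -1.18 for Mx1, -1.30 for Gvin1, -1.73 for Slfn4, -1.09 for RT1-S3, -1.28 for RT1-CE5 and -0.54 for RT1-Bb. In monocyte-like cells they were -1.67, -1.85, -1.15, -1.02, -1.34 and -0.28. B2m, the light chain of class I, stood at 4807 CPM in members of library 1 and 8829 CPM in those of library 2 (-0.88).

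Other genes highest in library 2 were Fcgr3a, an activating receptor for IgG, at 31.8 CPM in library 1 and 223 CPM in library 2 (-2.48), and Ms4a7 at 50.6 CPM in library 1 and 175 CPM in library 2 (-1.61). In C1q-high macrophages Fcgr3a had a log2 ratio of -1.62 and Ms4a7 of -0.13. Atp6v0d2, a proton pump subunit of osteoclasts and macrophages, stood at 7.89 CPM in library 1 and 77.7 CPM in library 2 (-2.29), and 5 cells held 76.5% of its UMIs in library 1 and 46.6% in library 2. Cst6, a cystatin that inhibits cathepsins, stood at 11.8 CPM in library 1 and 71.6 CPM in library 2 (-1.90), but 5 cells of library 2 held 95.8% of its UMIs and the ratio was -0.18 without the 5 highest members of each library. Ctsk, with a log2 ratio of -1.001, likewise stood at -0.30 without them. Cst6 and Ctsk thus rested on a few cells, while for Fcgr3a the ratio was -2.22 without them. Leaving out 5 cells takes a larger part of the members of library 2 than of library 1. This check therefore tends to shrink the ratios of genes higher in library 2.

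**Figure D5:**
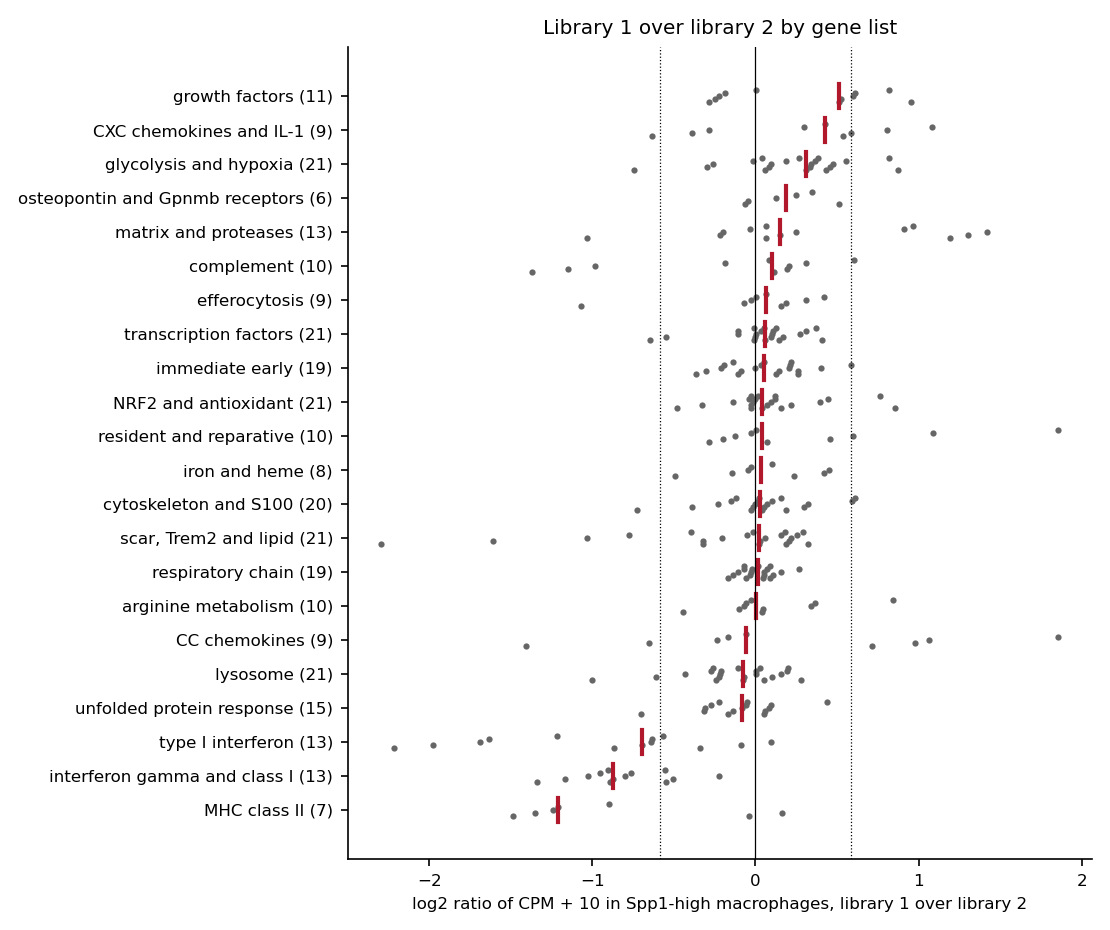
Log2 ratio of CPM plus 10, library 1 over library 2, in Spp1-high macrophages (horizontal axis), by gene list (vertical axis), 1 point per tested gene and a red bar at the median of each list, with the number of genes in parentheses and dotted lines at 1.5-fold. Type I interferon genes have a median of -0.69 and growth factors one of 0.51, and the median of all tested genes is 0.04.

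Irf7 and Ly6e were also set out by the C1q content of members. In members with under 0.3% C1q, Irf7 stood at 25.99 and 156 CPM in library 1 and library 2, and in members with more at 40.03 and 196 CPM. Ly6e stood at 238 and 739.7 CPM in members with under 0.3% C1q and 243 and 839 CPM in those with more. On both sides of this split Irf7 and Ly6e stood lower in library 1 than in library 2, and in each library both stood higher in members with more C1q, though with overlapping intervals for both genes in both libraries. Their relation to C1q content was not tested. With members of both libraries weighted to the same make-up of Spp1 steps, 100 of the 110 genes higher in library 1 and 116 of the 131 higher in library 2 remained called. Restricted to members with under 0.3% C1q, 95 and 102 remained, an alternative chosen after seeing the data.

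Summed markers of fibroblasts, cardiomyocytes, B cells and dendritic cells were lower in members than in C1q-high macrophages in both libraries, and those of neutrophils and osteoclasts were higher. Summed fibroblast markers stood at 7.65 and 24.1 CPM in members, against 22.2 and 44.4 CPM in C1q-high macrophages, and Col1a2, Pdgfra and Pdgfrb were at 0. Cardiomyocyte markers stood at 14.1 and 23.4 CPM in members, against 81.9 and 53.1 CPM in C1q-high macrophages, and B cell markers at 1.62 and 6.03 CPM in members, against 17.7 and 30.3 CPM in C1q-high macrophages. Neutrophil markers stood at 567 and 330.2 CPM in members, against 527 and 269 CPM in C1q-high macrophages, slightly higher in both libraries. Dendritic markers stood at 219 and 161 CPM in members, against 1009 and 957 CPM in C1q-high macrophages, and T cell markers at 190.4 and 286 CPM in members, against 366 and 271 CPM in C1q-high macrophages. Their part in the ratios was not tested. Cd2, an adhesion molecule of T cells, was called higher, though not without the 5 highest members, at 31.5 and 68.6 CPM in members, against 10.3 and 28.6 CPM in C1q-high macrophages, and Cd4, which rat macrophages also express, lower, at 27.6 and 37.7 CPM in members, against 209 and 163 CPM in C1q-high macrophages. Osteoclast markers stood at 517 and 648 CPM in members, against 255 and 195 CPM in C1q-high macrophages, mostly from Acp5 and Ctsk, while Dcstamp and Calcr, which define fused osteoclasts, were at 0.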

How the data were processed

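The deposited matrix holds raw UMI counts for 32623 genes and 29949 barcodes (14283 in library 1, 15666 in library 2; 72506643 and 82802439 UMIs). Per the file headers, Cell Ranger 4.0.0 made these counts. Genome build and annotation were not given in the sources used here, and near-identical gene copies may share reads. Rows of 1 symbol were summed, giving 26976 symbols. A deposited batch table describes other cells (111 of its 33756 barcodes match the matrix) and was not used.

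UMIs were summed per cell group and library and scaled to CPM. The code that makes the 2-fold calls was tested on simulated data with counting error only. Named genes have 50 or more UMIs and 50 CPM or more in the higher group and a gene symbol of their own. Genes of ribosomes, mitochondria, haemoglobin and antigen receptor segments were passed over. They are the 12 highest and 12 lowest ratios of each comparison, by the library nearer to 0 for members over C1q-high macrophages. Up to 4 genes of each list, those with the most UMIs, are examples. Other genes were named after their values were seen, and 1 gene that the rule names is not reported here. Members and lists were chosen with earlier results of these data known. Doublets were called with Scrublet (scanpy 1.11.5), at score cut-offs of 0.3055 and 0.2320. Alternatives were TMM factors (edgeR 4.0.16, R 4.3.3), other pseudocounts, minimums and thresholds, and members without called doublets. Python 3.11.15, numpy 2.4.6, scipy 1.17.1, pandas 2.3.3 and matplotlib 3.10.9 were used. Promoters are from RefSeq (GRCr8).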

Additional observations from a re-analysis of the deposited data

Results flagged for a closer look

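Mmp12, the macrophage elastase, went opposite ways between the libraries in members and in C1q-high macrophages. Its level in members was 201 CPM (188 to 215) for library 1 and 422 CPM (388 to 459) for library 2, a log2 ratio of -1.035. In C1q-high macrophages the level was 21.9 CPM (18.5 to 25.9) for library 1 and 10.1 CPM (7.70 to 12.99) for library 2, a ratio of 0.67. The difference between the 2 ratios was not tested. Among members, 5 cells held 27.8% of the Mmp12 UMIs of library 1 and 61.1% of those of library 2. Without the 5 highest members of each library, a setting chosen after seeing the data, the ratio was -0.18. That setting takes out a larger part of the members of library 2 than of library 1.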

How the results depend on the processing

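No paired analysis was possible because the single table pools both samples and its barcode suffixes carry no replicate numbers. With 1 library on each side no result has a test, so settings are compared by their values. With monocyte-like cells in place of C1q-high macrophages, 216 genes were higher in members and 240 lower, in place of 109 and 123. With 1 CPM added, 194 genes were lower in members and 209 higher in library 1, in place of 110. The library 1 number was 184 with an Spp1 threshold of 0.6%, 171 with every cell weighted alike and 209 in members with no S100a8 or S100a9 UMI. The library 2 number, 131 as reported, was 251 with no minimum. Among these settings, members without S100 UMIs kept the fewest calls between the libraries, 60 of 110 and 60 of 131. Without the 5 members of each library with the most UMIs of the gene, chosen after seeing the data, 73 of 109 genes were still higher than in C1q-high macrophages. With TMM factors the split was 130 higher and 101 lower than in C1q-high macrophages. Members made up 4.56% of library 1 and 1.64% of library 2 with an Spp1 threshold of 0.15%, and 2.52% and 0.817% with 0.6%. Without thinning, a UMI was found of Gpnmb in 95.7% and 97.3% of members of library 1 and library 2, of Fn1 in 74.6% and 66.3%, of Ccl7 in 38.6% and 35.3%, of Arg1 in 31.5% and 14.1%, and of Ccl24 in 25.6% in library 1. S100a8, at a log2 ratio of 0.996 between library 1 and library 2, came to -0.69 with every cell weighted alike, and the cause was not tested. Of the other values of counts and shares, 32 stayed within 1.5 times or within their interval. Of single genes and list medians, 2710 values stayed within their interval or spread and 746 lay outside it with the same sign or with no call. Library 2 has 184 members, so a gene carried by a few cells there is measured poorly, and Poisson intervals are too narrow for such genes.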

Other observations

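Besides the genes already described, others belonged to the 50 that stood at least 2-fold above both C1q-high macrophages and monocyte-like cells in both libraries. They are named here after their values were seen. Fam20c, the Golgi kinase that phosphorylates secreted proteins, osteopontin among them, stood at 320.3 and 253 CPM in members of library 1 and library 2, against 79.9 and 80.5 CPM in C1q-high macrophages and 60.97 and 84.2 CPM in monocyte-like cells. Pld3, a lysosomal enzyme, stood at 419 and 583 CPM in members, against 141 and 117 CPM in C1q-high macrophages and 36.5 and 36.4 CPM in monocyte-like cells. Rab7b, a GTPase of late endosomes, stood at 147 and 126 CPM in members, against 50.9 and 44.1 CPM in C1q-high macrophages and 64.6 and 47.04 CPM in monocyte-like cells. Fam20c, Pld3 and Rab7b were each highest in members, in library 1 and in library 2.

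Rab7b was not called over monocyte-like cells without the 5 members of each library with the most UMIs of the gene, with log2 ratios of 0.94 and 0.94. Csf1, the growth factor of macrophages, was among the same 50 genes, at 157 and 108 CPM in members, against 21.8 and 32.8 CPM in C1q-high macrophages and 18.6 and 15.2 CPM in monocyte-like cells. Without its 5 highest members its log2 ratios over C1q-high macrophages were 2.10 and 0.87, which ends that call. The potassium channel gene Kcnn4 stood at 159.8 and 169 CPM in members, against 66.1 and 64.2 CPM in C1q-high macrophages and 48.7 and 48.2 CPM in monocyte-like cells. Csf1r, the receptor of Csf1, stood lower in members than in C1q-high macrophages, at 307 and 296 CPM in members, against 719 and 576 CPM in C1q-high macrophages.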
